A study of Mus musculus with 9 samples.

Results

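P-IV.I and P-IV.II are subsets of mouse peritoneal myeloid cells sorted from the same gate, positive for MHC class II, for CD11c and for CD115. The labels call P-IV.I peritoneal dendritic cells and P-IV.II small peritoneal macrophages. The comparison uses 4 of the 9 libraries of the series, 2 of each subset, chosen by their titles. Of the 24532 genes in the deposited table, the 10526 with a value of at least 1 unit of FPKM (fragments per kilobase of transcript and per unit of library total) in at least 2 of the 9 libraries were compared. Outside the gate, type 2 peritoneal dendritic cells (PcDC2) were labelled CD11c+ CD115- and small peritoneal macrophages (SPM) CD11c- CD115+, with 2 libraries each. They served as a second contrast of dendritic cells with macrophages, which shares no library with the first. Unlike P-IV.I and P-IV.II, PcDC2 and SPM were sorted apart by CD11c and CD115, the products of Itgax and Csf1r. All groups were MHCII+ cells washed out of the peritoneum of 8-week-old C57BL/6 mice, with no treatment or engineered allele in the labels. The stain or gate that parts P-IV.I from P-IV.II is not given in the sources used here, nor whether the libraries of a group came from separate animals.

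CD115 is the receptor for macrophage colony-stimulating factor, on which monocytes and macrophages depend, and CD11c is an integrin chain common to dendritic cells and to some macrophages. Conventional dendritic cells depend instead on FLT3 and its ligand, take up antigen and carry it to T cells, whereas macrophages of the body cavities clear dying cells and microbes and secrete complement, lysozymes and lipid mediators. Cells that carry both CD11c and CD115 cannot be assigned to either lineage from the sort markers alone.

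The 4 libraries summed to between 439597 and 542383 FPKM, and between 9250 and 9847 genes had an FPKM of 1 or more. The table holds no counts, so read depth is unknown. Across genes, Pearson's r of log2(FPKM + 1) was 0.959 between the P-IV.I libraries, 0.956 between the P-IV.II libraries and 0.891 to 0.918 between libraries of different subsets. By limma with Benjamini-Hochberg adjustment, 1012 genes (9.61%) were called at an adjusted p under 0.05, of which 685 (6.51%) were higher in P-IV.I and 327 (3.11%) were lower. None of the called genes overlapped between the subsets, and the same held for 5874 genes (55.8%) with or without a call. How calls divided into higher and lower depended on the scaling between libraries: the median log2 difference of all genes was 0.19 as deposited and 0.00 after median-ratio rescaling, which gave 475 genes higher and 495 lower. Of the called genes 737 were called under the deposited scale, median-ratio rescaling and quantile normalization alike, 417 of them higher and 320 lower. Without P-IV.I replicate 1 the total was 366, without P-IV.I replicate 2 it was 530, without P-IV.II replicate 1 it was 599 and without P-IV.II replicate 2 it was 368. In bulk samples, fewer cells of a type and less RNA per cell cannot be told apart.

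Markers of other cell types of the cavity were low in most cases, and the part of such cells in any difference below was not tested. Summed over their lists, B cell markers stood at 32.9 and 34.8 FPKM in P-IV.I and 40.0 and 24.6 in P-IV.II. T and NK cell markers stood at 18.6 and 13.6 in P-IV.I and at 5.73 and 5.88 in P-IV.II. Of the T and NK list 1 of 6 tested genes, Cd4, was called higher, and Cd3e and Cd3g were not called. Cd4 was at 9.91 and 6.69 FPKM in P-IV.I and 0.698 and 0.265 in P-IV.II, a large part of the P-IV.I sums. In PcDC2 it was at 12.6 and 7.34. The mast cell and basophil list reached 4.01 and 1.89 FPKM against 0.249 and 0.762, and the neutrophil and eosinophil list 3.96 and 3.79 against 3.15 and 3.51. Mesothelial and stromal markers summed to 4.58 and 9.13 in P-IV.I and 1.48 and 2.03 in P-IV.II, with 7 of 12 listed at 0 in all 4 libraries. Monocyte markers summed to 1386 and 2738 in P-IV.I and 2397 and 1486 in P-IV.II. Of 11 tested monocyte markers 2 were called higher, Cx3cr1 and Treml4, and 3 lower, Cd14, Fcgr4 and F13a1. The share of all tested genes called was 9.61%. Markers of large peritoneal macrophages summed to 66.0 and 89.2 in P-IV.I and 83.9 and 94.9 in P-IV.II. The plasmacytoid dendritic cell list, at 117 and 51.9 FPKM in P-IV.I and 64.1 and 38.4 in P-IV.II, had 4 of 7 tested members higher in P-IV.I and 0 lower (1 to 2 higher with 1 library left out), while its defining surface marker Siglech stayed at or under 0.172 in all 4 libraries. The type 1 dendritic cell list had 6 of 9 tested members higher and 0 lower (3 to 6 higher with 1 library left out), with sums of 398 and 480 in P-IV.I and 427 and 321 in P-IV.II.

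The 6 genes given as markers of the subsets stood far apart. Values are given for replicate 1 and then replicate 2 of each subset, and log2 fold changes (log2FC) are P-IV.I minus P-IV.II on the log2(FPKM + 1) scale with the standard error of the limma fit (2 libraries per group). Flt3, the receptor for the growth factor of conventional dendritic cells (chromosome 5, 147330741 to 147400489, mm10), was at 102 and 118 FPKM in P-IV.I and 2.23 and 0.765 in P-IV.II (log2FC 5.54 ± 0.31, adjusted p = 0.000362). Kit, the stem cell factor receptor (chromosome 5, 75574987 to 75656722, mm10), was at 19.0 and 23.0 FPKM in P-IV.I and 0.0397 and 0.122 in P-IV.II (log2FC 4.34 ± 0.26, adjusted p = 0.000362). Both libraries of P-IV.I held ample transcript of these receptors, and both libraries of P-IV.II held little. Asb2, a substrate adaptor of a ubiquitin ligase (chromosome 12, 103321142 to 103356001, mm10), was at 30.2 and 23.5 FPKM in P-IV.I and 0.0478 and 0.230 in P-IV.II (log2FC 4.61 ± 0.27, adjusted p = 0.000362). Btla, an inhibitory immunoglobulin-like receptor of lymphocytes and dendritic cells (chromosome 16, 45223705 to 45252895, mm10), was at 22.2 and 25.4 FPKM in P-IV.I and 0.602 and 0.554 in P-IV.II (log2FC 3.97 ± 0.26, adjusted p = 0.000381). P-IV.I was thus the high subset for 4 of the markers. Retnla, a secreted protein of alternatively activated macrophages (chromosome 16, 48842609 to 48844461, mm10), was at 463 and 579 FPKM in P-IV.I and 13579 and 10979 in P-IV.II (log2FC -4.56 ± 0.52, adjusted p = 0.00215). Bcam, a laminin-binding adhesion molecule (chromosome 7, 19756138 to 19770532, mm10), was at 1.60 and 6.07 FPKM in P-IV.I and 75.5 and 71.0 in P-IV.II (log2FC -4.11 ± 0.45, adjusted p = 0.00192). For these last genes P-IV.II was the high subset, yet Retnla was still among the abundant transcripts of the P-IV.I libraries. The calls of all 6 held in each of the 4 fits that left out 1 library.

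**Figure D1:**
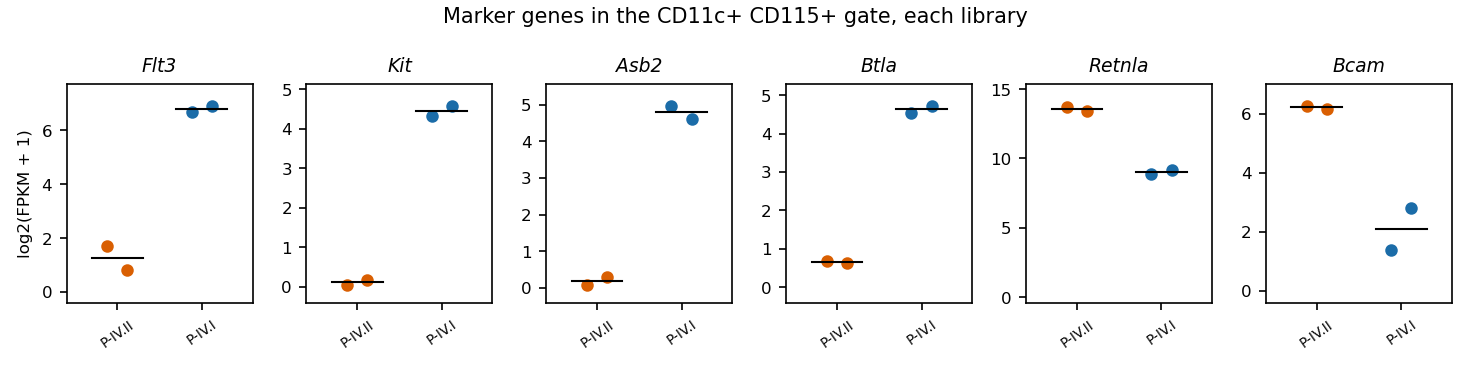
Marker genes by library. Each panel shows 1 gene, with log2(FPKM + 1) on the vertical axis and 1 point per library for P-IV.II and P-IV.I, and horizontal bars are group means. Flt3, Kit, Asb2 and Btla were high in both P-IV.I libraries and near 0 in P-IV.II, and Retnla and Bcam were high in both P-IV.II libraries.

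The genes behind the sort were closer. Itgax, which encodes CD11c, was at 105 and 94.8 FPKM in P-IV.I and 32.0 and 22.2 in P-IV.II (log2FC 1.86 ± 0.25, adjusted p = 0.00362), and both P-IV.I libraries were the higher ones. Csf1r, which encodes CD115, was at 157 and 246 FPKM in P-IV.I and 293 and 327 in P-IV.II and was not called (log2FC -0.65 ± 0.32, adjusted p = 0.229). Among the class II genes, H2-Ab1 was at 15393 and 14869 FPKM in P-IV.I and 16564 and 16859.7 in P-IV.II on the deposited scale (log2FC -0.14 ± 0.36, adjusted p = 0.833), but after quantile normalization its difference turned to 1.03 (adjusted p = 0.031).

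The promoters of 4 markers are shown because they belong to the genes that part the subsets most and can be set beside each other. Each runs from 250 bases before to 50 after the annotated start, 5′ to 3′ on the gene's strand (RefSeq, GRCm38.p6). Capitals mark matches to GAGGAA, the ETS core bound by the myeloid factor PU.1, to TTCNNNNGAA, the spacing preferred by STAT6, or to TGANTCA, the AP-1 motif, searched on both strands.
Flt3 promoter, chr5:147400440-147400739, minus strand: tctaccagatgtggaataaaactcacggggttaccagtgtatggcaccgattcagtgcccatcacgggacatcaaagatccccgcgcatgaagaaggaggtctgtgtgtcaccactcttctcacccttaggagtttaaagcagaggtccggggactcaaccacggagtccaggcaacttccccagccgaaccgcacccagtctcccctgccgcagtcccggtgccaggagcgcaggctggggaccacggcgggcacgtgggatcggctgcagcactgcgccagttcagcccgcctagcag
Kit promoter, chr5:75574737-75575036, plus strand: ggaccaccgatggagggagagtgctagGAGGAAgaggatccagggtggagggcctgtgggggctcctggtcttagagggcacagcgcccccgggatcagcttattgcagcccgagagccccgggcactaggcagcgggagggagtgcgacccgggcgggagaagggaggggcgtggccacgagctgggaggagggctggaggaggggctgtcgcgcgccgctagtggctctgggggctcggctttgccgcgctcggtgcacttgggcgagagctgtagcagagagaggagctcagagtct
Retnla promoter, chr16:48842359-48842658, plus strand: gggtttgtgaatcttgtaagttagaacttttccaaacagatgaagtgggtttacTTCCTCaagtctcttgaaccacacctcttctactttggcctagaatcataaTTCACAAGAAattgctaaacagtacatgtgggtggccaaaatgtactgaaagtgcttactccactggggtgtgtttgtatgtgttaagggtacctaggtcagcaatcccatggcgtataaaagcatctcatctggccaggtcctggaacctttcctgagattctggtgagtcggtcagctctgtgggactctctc
Bcam promoter, chr7:19770483-19770782, minus strand: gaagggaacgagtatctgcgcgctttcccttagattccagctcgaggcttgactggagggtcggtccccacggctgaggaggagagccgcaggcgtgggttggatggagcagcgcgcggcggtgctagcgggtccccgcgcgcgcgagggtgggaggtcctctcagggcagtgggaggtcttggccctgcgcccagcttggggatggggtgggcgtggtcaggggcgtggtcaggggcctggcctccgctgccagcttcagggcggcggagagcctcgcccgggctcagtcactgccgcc
Kit held 1 match to GAGGAA, which begins at -223 from the start. Retnla held 1 match to GAGGAA on the other strand, read as TTCCTC at -196, and 1 match to TTCNNNNGAA at -145. The Flt3 and Bcam windows held none of these letters, and TGANTCA was in none of the 4. Of 32851 promoters of the same length in the table, 28.3% held GAGGAA, 6.95% TTCNNNNGAA and 7.81% TGANTCA. A match is a description of the letters and not a site of binding.

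Beyond the markers, the genes with the largest differences included transporters, cell surface receptors and secreted proteins. Slc46a3, a transporter of the lysosomal membrane, was at 109 and 127 FPKM in P-IV.I and 3.02 and 3.21 in P-IV.II (log2FC 4.85 ± 0.25, adjusted p = 0.000362). Cd7, an immunoglobulin-like receptor known from T and NK cells, was at 55.8 and 38.4 FPKM in P-IV.I and 1.17 and 0.619 in P-IV.II (log2FC 4.66 ± 0.30, adjusted p = 0.000381). Parvg, an actin-linked partner of integrin-linked kinase, was at 41.3 and 35.1 FPKM in P-IV.I and 1.08 and 0.681 in P-IV.II (log2FC 4.38 ± 0.32, adjusted p = 0.000499). For these genes the P-IV.I libraries lay between 35.1 and 127 FPKM and the P-IV.II libraries between 0.619 and 3.21. Ms4a4c, a membrane protein of the MS4A family, was at 133 and 82.9 FPKM in P-IV.I and 6.33 and 2.47 in P-IV.II (log2FC 4.39 ± 0.45, adjusted p = 0.00166). Ifi205, an interferon-inducible gene of a cluster of near-identical copies, was at 23.5 and 31.5 FPKM in P-IV.I and 0 and 1.549 in P-IV.II (log2FC 4.14 ± 0.50, adjusted p = 0.00253), and how fragments were shared among the copies is not given. Those called lower included secreted and cell surface proteins. Kazald1, a secreted protein with a Kazal domain, was at 2.38 and 2.96 FPKM in P-IV.I and 37.7 and 31.8 in P-IV.II (log2FC -3.28 ± 0.24, adjusted p = 0.000484). Sdc1, the heparan sulfate proteoglycan syndecan 1, was at 8.08 and 33.1 FPKM in P-IV.I and 164 and 153 in P-IV.II (log2FC -3.18 ± 0.54, adjusted p = 0.0103), and the P-IV.I libraries lay far apart. Sdc1 lost its call without P-IV.II replicate 2, at an adjusted p of 0.0519.

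**Figure D2:**
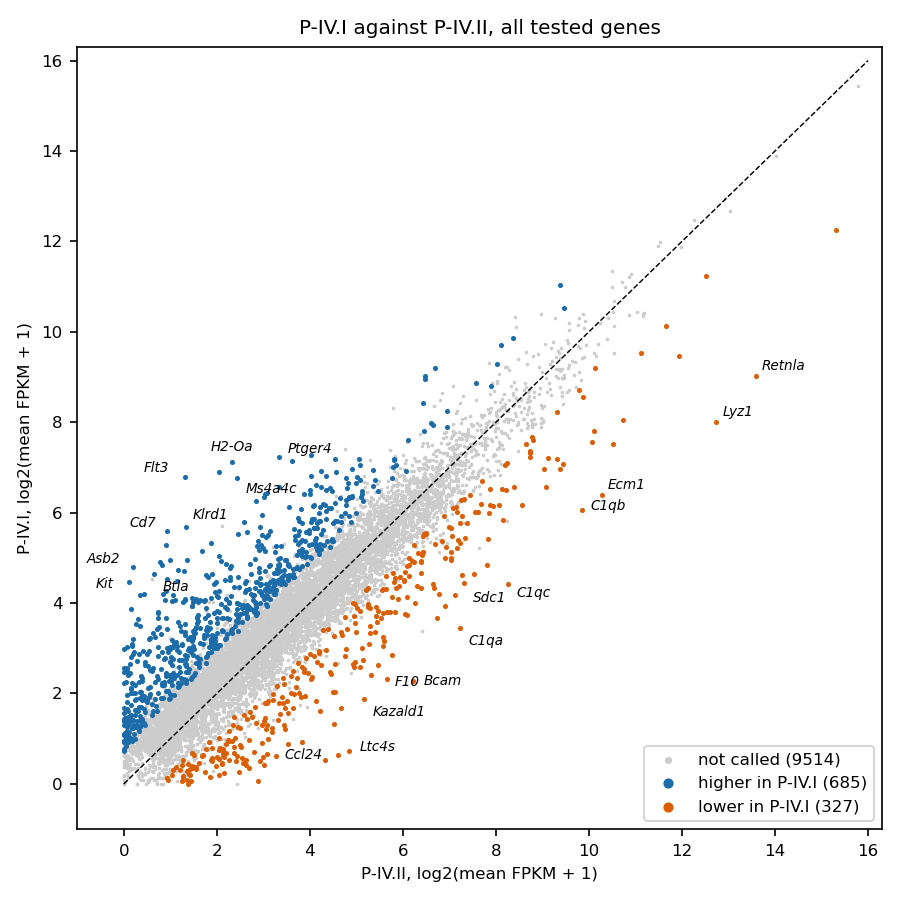
Mean expression of all tested genes in P-IV.II (horizontal) and P-IV.I (vertical), both as log2(mean FPKM + 1); each point is 1 gene and the dashed line marks equal values. The 685 genes called higher lie above the line and reach down to genes near 0 in P-IV.II, and the 327 called lower lie below it and include several of the most abundant transcripts, among them Retnla and Lyz1.

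The lists of gene families drew apart by theme. Of 349 tested surface receptor genes 33.2% were called, 85 higher and 31 lower. Signalling genes had 22.7% called of 444, with 78 higher and 23 lower. Metabolic genes had 17.2% called of 361, with 26 higher and 36 lower. Of 145 tested genes of secreted products 30.3% were called, 11 higher and 33 lower. The share of all tested genes was 9.61%. Counts of single lists below are to be read beside the shares of all tested genes, 6.51% higher and 3.11% lower. After median-ratio rescaling the higher and lower counts were 76 and 38 for surface receptors, 57 and 27 for signalling, 22 and 50 for metabolism and 8 and 38 for secreted products, so the side with more calls was the same in each theme.

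**Figure D3:**
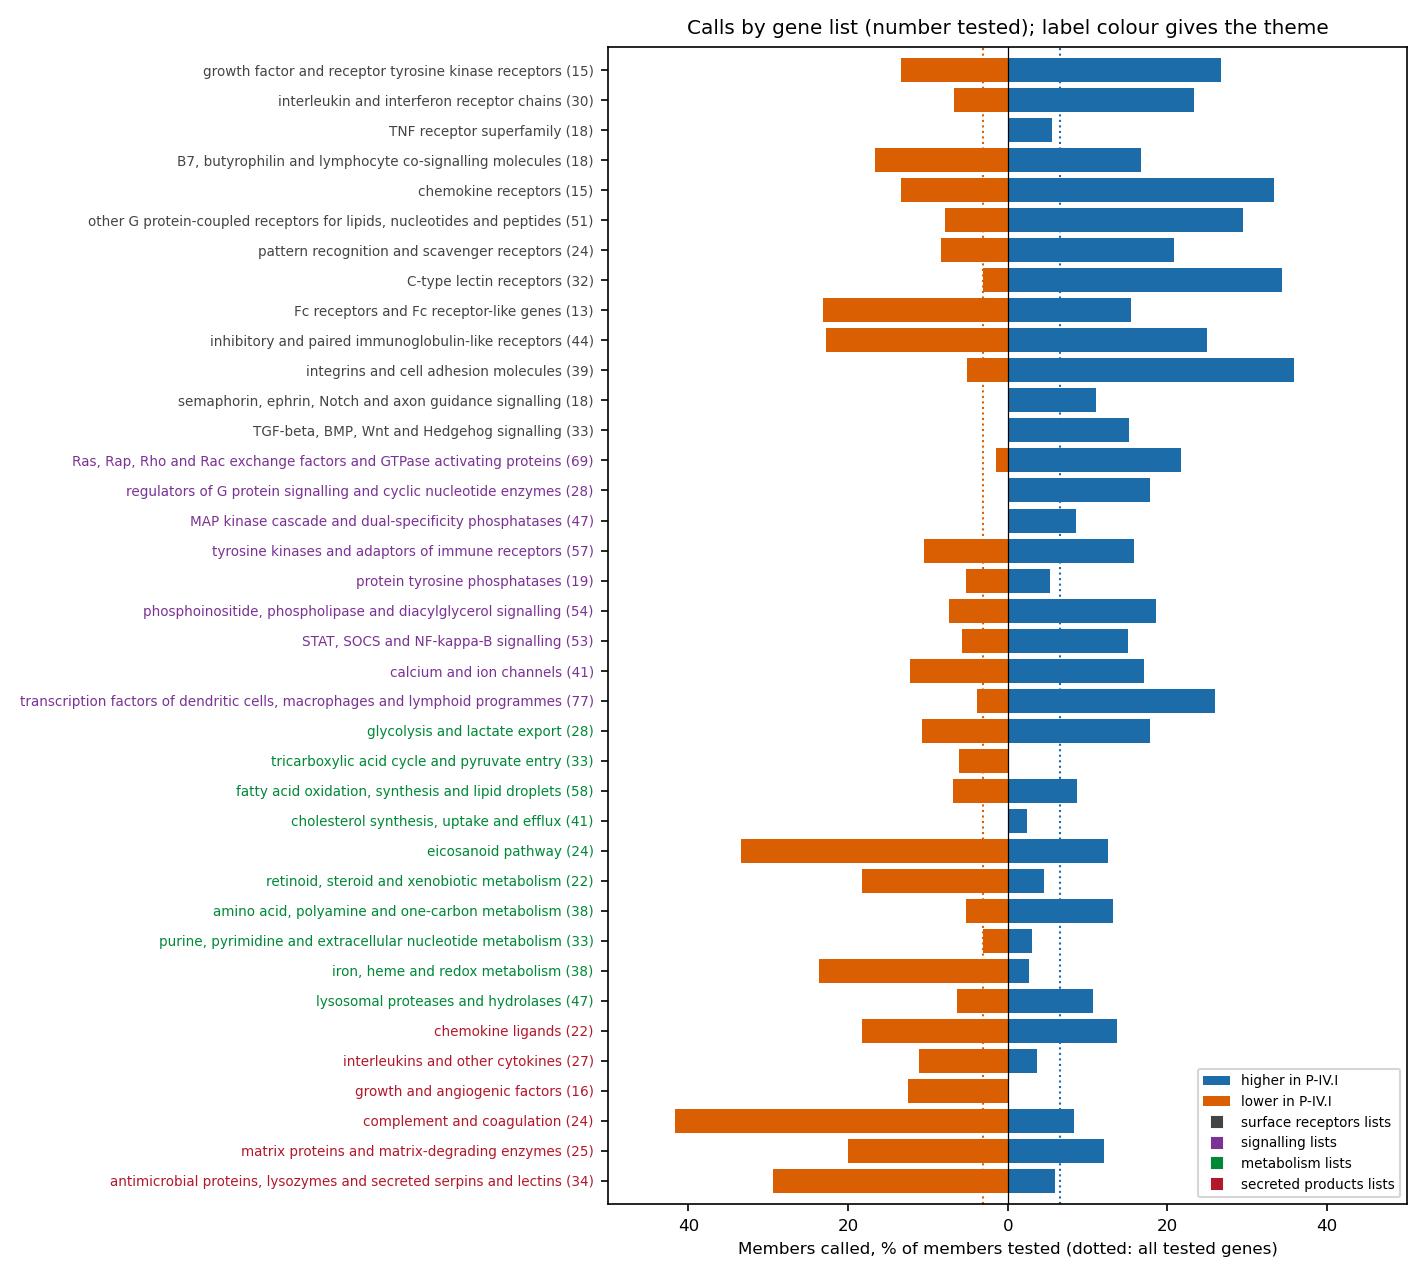
Calls in each of the 38 gene lists. Bars give the share of tested members called higher (right) or lower (left) in P-IV.I, in % of members tested, with the number tested in brackets and dotted lines at the shares of all tested genes (6.51% higher, 3.11% lower). Bars to the left are longest for complement and coagulation, the eicosanoid pathway and antimicrobial proteins, and bars to the right for integrins and adhesion, C-type lectins and chemokine receptors.

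Growth factor and cytokine receptors were mostly higher in P-IV.I where they were called. Of the 15 tested receptor tyrosine kinases and growth factor receptors, 4 were called higher, 2 lower and 9 were not called, at a median log2FC of 0.06. Besides Flt3 and Kit, Ddr1, a collagen receptor, was at 51.1 and 65.0 FPKM in P-IV.I and 13.8 and 10.9 in P-IV.II (log2FC 2.14 ± 0.32, adjusted p = 0.00553). The high subset was P-IV.II for Mertk, a receptor for dying cells, at 0.118 and 0.448 FPKM in P-IV.I and 5.23 and 5.73 in P-IV.II (log2FC -2.35 ± 0.22, adjusted p = 0.00136). The same held for Ryk, a Wnt receptor, at 0.184 and 0.678 FPKM in P-IV.I and 4.59 and 3.99 in P-IV.II (log2FC -1.91 ± 0.25, adjusted p = 0.00325). Mertk and Ryk were under 1 FPKM in both P-IV.I libraries. Csf2ra, the receptor chain for GM-CSF, was abundant in both subsets at 309 and 572 FPKM in P-IV.I and 703 and 985 in P-IV.II and was not called (log2FC -0.98 ± 0.34, adjusted p = 0.116). Of the 30 tested interleukin and interferon receptor chains, 7 were called higher, 2 lower and 21 were not called, at a median log2FC of 0.48 (with 1 library left out, 6 to 8 higher and 0 lower). Il12rb2, a chain of the interleukin 12 receptor, was at 7.62 and 6.88 FPKM in P-IV.I and 0.0513 and 0.224 in P-IV.II (log2FC 2.86 ± 0.28, adjusted p = 0.00145). Il6st, the signalling chain shared by the interleukin 6 family, was at 28.4 and 24.0 FPKM in P-IV.I and 2.88 and 4.82 in P-IV.II (log2FC 2.51 ± 0.27, adjusted p = 0.00192). Il13ra1, a chain of the receptors for interleukins 4 and 13, was at 75.1 and 92.3 FPKM in P-IV.I and 14.4 and 15.7 in P-IV.II (log2FC 2.39 ± 0.28, adjusted p = 0.00231). None of these overlapped between subsets, as held for every called gene. Ifngr1, a chain of the interferon gamma receptor, was at 468 and 481 FPKM in P-IV.I and 295 and 374 in P-IV.II and was not called (log2FC 0.51 ± 0.26, adjusted p = 0.239).

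Co-signalling molecules split. Of the 18 tested co-signalling molecules, 3 were called higher, 3 lower and 12 were not called, at a median log2FC of 0.42 (with 1 library left out, 3 to 4 higher and 0 to 2 lower), and with 3 higher and 4 lower after median-ratio rescaling and 3 and 4 after quantile normalization. Havcr2, which encodes the inhibitory receptor TIM-3, was at 16.6 and 17.6 FPKM in P-IV.I and 0.238 and 0.302 in P-IV.II (log2FC 3.83 ± 0.22, adjusted p = 0.000362), a pattern like that of Btla. Cd200, the ligand of an inhibitory receptor of myeloid cells, was at 3.06 and 2.72 FPKM in P-IV.I and 0 and 0.113 in P-IV.II (log2FC 1.88 ± 0.25, adjusted p = 0.00339). That receptor, Cd200r1, was at 44.3 and 46.1 FPKM in P-IV.I and 80.8 and 97.4 in P-IV.II (log2FC -0.96 ± 0.22, adjusted p = 0.0321). Ligand and receptor were thus high in opposite subsets. Cd226, an activating receptor for nectin-like molecules, was at 39.2 and 42.0 FPKM in P-IV.I and 86.0 and 141 in P-IV.II (log2FC -1.42 ± 0.33, adjusted p = 0.0339). Lgals9, a galectin that binds TIM-3, was at 56.8 and 63.1 FPKM in P-IV.I and 147 and 158 in P-IV.II (log2FC -1.33 ± 0.21, adjusted p = 0.0074). The inhibitory molecule VISTA, encoded by Vsir, did not pass at 90.3 and 75.3 FPKM in P-IV.I and 123 and 93.6 in P-IV.II (log2FC -0.38 ± 0.25, adjusted p = 0.359). Of the 18 tested TNF receptor superfamily genes, 1 was called higher, 0 lower and 17 were not called, at a median log2FC of 0.14 (with 1 library left out, 0 to 1 higher and 0 lower), and with 0 higher and 0 lower after median-ratio rescaling and 0 and 1 after quantile normalization. Both shares were close to or below those of all tested genes (6.51% higher, 3.11% lower). Cd200r1 lost its call without any 1 of the 4 libraries, at an adjusted p of up to 0.189. Cd226 lost its call without P-IV.I replicate 1, P-IV.I replicate 2 or P-IV.II replicate 2, at an adjusted p of up to 0.183. Lgals9 lost its call without P-IV.I replicate 1 or P-IV.II replicate 2, at an adjusted p of up to 0.0655.

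Chemoattractant and other G protein-coupled receptors were among the clearest differences. Of the 15 tested chemokine receptors, 5 were called higher, 2 lower and 8 were not called, at a median log2FC of 0.55 (with 1 library left out, 3 to 4 higher and 1 lower). Ccr7, which guides dendritic cells to lymph nodes, was at 54.9 and 67.1 FPKM in P-IV.I and 11.7 and 2.099 in P-IV.II (log2FC 3.30 ± 0.72, adjusted p = 0.027). Cx3cr1, the fractalkine receptor, was at 59.6 and 33.8 FPKM in P-IV.I and 6.56 and 4.01 in P-IV.II (log2FC 2.90 ± 0.34, adjusted p = 0.00238). Xcr1, a receptor of type 1 dendritic cells, was at 5.75 and 9.32 FPKM in P-IV.I and 0.140 and 0.110 in P-IV.II (log2FC 2.89 ± 0.42, adjusted p = 0.00538). These were high in P-IV.I. Ccr1, a receptor for inflammatory chemokines, was high in P-IV.II, at 28.6 and 33.6 FPKM in P-IV.I and 122 and 136 in P-IV.II (log2FC -2.02 ± 0.25, adjusted p = 0.00291). Ccr2, the receptor of monocyte emigration, was abundant in both subsets at 437 and 568 FPKM in P-IV.I and 623 and 738 in P-IV.II and was not called (log2FC -0.44 ± 0.27, adjusted p = 0.33). Of the 51 tested other G protein-coupled receptors, 15 were called higher, 4 lower and 32 were not called, at a median log2FC of 0.24 (with 1 library left out, 11 to 13 higher and 1 to 5 lower). Ptger4, a prostaglandin E2 receptor, was at 126 and 171 FPKM in P-IV.I and 14.1 and 4.18 in P-IV.II (log2FC 4.06 ± 0.48, adjusted p = 0.00249). Ptger2, another receptor for the same lipid, was at 1.37 and 2.79 FPKM in P-IV.I and 11.3 and 23.7 in P-IV.II (log2FC -2.54 ± 0.40, adjusted p = 0.0069). These receptors differed in opposite directions, and neither overlapped between the subsets, as held for every called gene. Ccr7 lost its call without P-IV.I replicate 1, P-IV.I replicate 2 or P-IV.II replicate 2, at an adjusted p of up to 0.118. Ptger2 lost its call without P-IV.I replicate 1, at an adjusted p of 0.0562.

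Other G protein-coupled receptors were also on both sides. Gpr183, which senses oxysterols and positions cells in lymphoid tissue, was at 38.3 and 21.3 FPKM in P-IV.I and 1.03 and 0.946 in P-IV.II (log2FC 3.90 ± 0.30, adjusted p = 0.000563). P2ry10, a receptor for lysophospholipids, was at 40.0 and 38.7 FPKM in P-IV.I and 3.32 and 2.05 in P-IV.II (log2FC 3.48 ± 0.38, adjusted p = 0.00192). The orphan receptor Gpr141 was at 34.4 and 34.2 FPKM in P-IV.I and 2.12 and 2.31 in P-IV.II (log2FC 3.46 ± 0.27, adjusted p = 0.000592). The P-IV.I libraries lay between 21.3 and 40.0 FPKM for these genes and the P-IV.II libraries between 0.946 and 3.32. The receptors of the complement peptides C3a and C5a were lower. C3ar1 was at 0.291 and 0.565 FPKM in P-IV.I and 6.56 and 6.72 in P-IV.II (log2FC -2.43 ± 0.24, adjusted p = 0.00145). C5ar1 was at 3.81 and 6.16 FPKM in P-IV.I and 38.6 and 21.3 in P-IV.II (log2FC -2.34 ± 0.37, adjusted p = 0.00717). C5ar1 lost its call without P-IV.I replicate 1, at an adjusted p of 0.0583.

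Pattern recognition receptors and lectins differed in which subset held more of them. Of the 24 tested pattern recognition and scavenger receptors, 5 were called higher, 2 lower and 17 were not called, at a median log2FC of -0.32 (with 1 library left out, 2 to 5 higher and 0 to 1 lower). Tlr13, a sensor of bacterial ribosomal RNA, was at 24.8 and 22.5 FPKM in P-IV.I and 2.25 and 2.52 in P-IV.II (log2FC 2.86 ± 0.29, adjusted p = 0.00166). Tlr1, a partner of Tlr2 for lipopeptides, was at 23.8 and 19.6 FPKM in P-IV.I and 4.14 and 2.83 in P-IV.II (log2FC 2.35 ± 0.26, adjusted p = 0.00206). Cd14, the co-receptor for lipopolysaccharide, was at 99.7 and 191 FPKM in P-IV.I and 909 and 362 in P-IV.II (log2FC -2.05 ± 0.48, adjusted p = 0.0352), and its P-IV.II libraries lay far apart. As for every called gene, the Cd14 libraries did not overlap between the subsets, and neither did those of 55.8% of all tested genes. Cd36, a scavenger receptor that also takes up fatty acids, was at 29.9 and 54.5 FPKM in P-IV.I and 128 and 195 in P-IV.II (log2FC -1.94 ± 0.45, adjusted p = 0.0351). The endosomal and lipopeptide sensors named were thus high in P-IV.I, and the surface receptors for lipopolysaccharide and lipids in P-IV.II. Of the 32 tested C-type lectin receptors, 11 were called higher, 1 lower and 20 were not called, at a median log2FC of 0.61 (with 1 library left out, 5 to 10 higher and 0 to 1 lower), and with 10 higher and 3 lower after median-ratio rescaling and 10 and 1 after quantile normalization. Klrd1, which encodes the NK receptor chain CD94, was at 79.5 and 20.7 FPKM in P-IV.I and 1.91 and 1.16 in P-IV.II (log2FC 4.06 ± 0.60, adjusted p = 0.00548). Klri2, another gene of the NK complex, was at 9.41 and 8.56 FPKM in P-IV.I and 0.440 and 1.02 in P-IV.II (log2FC 2.55 ± 0.25, adjusted p = 0.00145). These and Cd7 are known from NK and T cells, whose marker sums, given above, were also higher in P-IV.I. Cd4 made up a large part of those sums, and Cd3e and Cd3g were not called. In PcDC2 Cd7 was at 160 and 123 FPKM. The part of NK and T cells in the difference was not tested. Cd72, a B cell co-receptor also found on dendritic cells, was at 21.1 and 20.9 FPKM in P-IV.I and 3.82 and 2.13 in P-IV.II (log2FC 2.50 ± 0.27, adjusted p = 0.00192). Clec4a2, one of a family of near-identical inhibitory lectins, was the member called lower, at 14.5 and 11.6 FPKM in P-IV.I and 48.7 and 38.0 in P-IV.II (log2FC -1.66 ± 0.33, adjusted p = 0.0201). Mgl2, a galactose lectin, was abundant in both subsets at 696 and 753 FPKM in P-IV.I and 583 and 378 in P-IV.II and was not called (log2FC 0.63 ± 0.29, adjusted p = 0.205). Clec4a2 and Cd36 lost their calls without any 1 of the 4 libraries, at adjusted p values of up to 0.104 and 0.185. Cd14 lost its call without P-IV.I replicate 1 or P-IV.II replicate 1, at an adjusted p of up to 0.185.

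Fc receptors and paired immunoglobulin-like receptors had calls on both sides. Of the 13 tested Fc receptor genes, 2 were called higher, 3 lower and 8 were not called, at a median log2FC of 0.11 (with 1 library left out, 0 to 2 higher and 2 to 3 lower), and with 1 higher and 3 lower after median-ratio rescaling and 1 and 3 after quantile normalization. Fcgr3, an activating receptor for immunoglobulin G, was at 161 and 212 FPKM in P-IV.I and 1028 and 1108 in P-IV.II (log2FC -2.52 ± 0.24, adjusted p = 0.00142). Fcrls, an Fc receptor-like scavenger protein of mouse macrophages, was at 191 and 339 FPKM in P-IV.I and 1555 and 1863 in P-IV.II (log2FC -2.74 ± 0.32, adjusted p = 0.00239). The neonatal Fc receptor Fcgrt, which recycles immunoglobulin G, was at 187 and 202 FPKM in P-IV.I and 73.1 and 63.0 in P-IV.II (log2FC 1.503 ± 0.22, adjusted p = 0.00538). Fcgr3 and Fcrls were thus far above their P-IV.I level in both P-IV.II libraries. Fcgr4, also called lower, was at 11.4 and 6.78 FPKM in P-IV.I and 49.9 and 26.7 in P-IV.II. Fcgr4 lost its call without P-IV.I replicate 1, P-IV.I replicate 2 or P-IV.II replicate 1. Fcer1g, the signalling chain of activating Fc receptors, was at 511 and 299 FPKM in P-IV.I and 788 and 579 in P-IV.II and was not called (log2FC -0.79 ± 0.42, adjusted p = 0.265). Of the 44 tested inhibitory and paired receptors, 11 were called higher, 10 lower and 23 were not called, at a median log2FC of 0.11 (with 1 library left out, 7 to 12 higher and 4 to 5 lower), and with 11 higher and 10 lower after median-ratio rescaling and 10 and 10 after quantile normalization. Slamf7, a self-binding receptor of the SLAM family, was at 111 and 77.6 FPKM in P-IV.I and 10.7 and 7.62 in P-IV.II (log2FC 3.22 ± 0.27, adjusted p = 0.000751). Cd300e was at 7.52 and 5.61 FPKM in P-IV.I and 0.184 and 0.128 in P-IV.II (log2FC 2.70 ± 0.29, adjusted p = 0.00192). Siglecg, a sialic acid receptor, was at 29.6 and 31.4 FPKM in P-IV.I and 5.05 and 6.99 in P-IV.II (log2FC 2.18 ± 0.25, adjusted p = 0.00231). The P-IV.II libraries of these genes lay between 0.128 and 10.7 FPKM. Cd2, a related adhesion receptor, was on the lower side at 26.3 and 21.5 FPKM in P-IV.I and 163 and 207 in P-IV.II (log2FC -2.90 ± 0.26, adjusted p = 0.00111). Cd84, another SLAM family member, was at 12.2 and 22.7 FPKM in P-IV.I and 101 and 117 in P-IV.II (log2FC -2.63 ± 0.34, adjusted p = 0.00319). Members of the SLAM family were therefore high in either subset. Sirpb1a, which has near-identical copies, was at 145 and 92.5 FPKM in P-IV.I and 28.0 and 17.2 in P-IV.II (log2FC 2.35 ± 0.34, adjusted p = 0.00534). Fcgrt lost its call without P-IV.II replicate 2, at an adjusted p of 0.0555.

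Adhesion molecules that were called were mostly on the higher side. Of the 39 tested integrins and adhesion molecules, 14 were called higher, 2 lower and 23 were not called, at a median log2FC of 0.68 (with 1 library left out, 7 to 11 higher and 2 lower). Itgb7, the chain that pairs with alpha 4 and alpha E integrins in homing to mucosa, was at 533 and 641 FPKM in P-IV.I and 101 and 104 in P-IV.II (log2FC 2.50 ± 0.27, adjusted p = 0.00192). Amica1, a junctional molecule also called Jaml, was at 48.4 and 51.8 FPKM in P-IV.I and 7.86 and 5.26 in P-IV.II (log2FC 2.78 ± 0.24, adjusted p = 0.000971). F11r, another junctional molecule, was at 10.7 and 7.60 FPKM in P-IV.I and 0.771 and 0.307 in P-IV.II (log2FC 2.72 ± 0.28, adjusted p = 0.00166). All of these were high in P-IV.I, and the tetraspanins went opposite ways. Cd82 was at 42.9 and 32.0 FPKM in P-IV.I and 8.27 and 4.32 in P-IV.II (log2FC 2.44 ± 0.32, adjusted p = 0.00339). Cd81 was at 134 and 136 FPKM in P-IV.I and 557 and 832 in P-IV.II (log2FC -2.33 ± 0.28, adjusted p = 0.00242), and with Bcam it was one of the members called lower. Of the 18 tested guidance genes, 2 were called higher, 0 lower and 16 were not called, at a median log2FC of 0.32, and with 2 higher and 0 lower after median-ratio rescaling and 2 and 1 after quantile normalization. These few calls stand beside shares of 6.51% higher and 3.11% lower over all tested genes. Sema4d, a semaphorin of immune cells, was at 80.4 and 107 FPKM in P-IV.I and 20.6 and 15.5 in P-IV.II (log2FC 2.32 ± 0.26, adjusted p = 0.00211). Plxnc1, a semaphorin receptor, was at 15.0 and 17.8 FPKM in P-IV.I and 2.80 and 2.57 in P-IV.II (log2FC 2.24 ± 0.23, adjusted p = 0.00166). Of the 33 tested TGF-beta, BMP, Wnt and Hedgehog genes, 5 were called higher, 0 lower and 28 were not called, at a median log2FC of 0.35 (with 1 library left out, 1 to 6 higher and 0 to 1 lower), and with 3 higher and 0 lower after median-ratio rescaling and 3 and 1 after quantile normalization. Smad1, a transducer of BMP signals, was at 32.6 and 43.4 FPKM in P-IV.I and 6.37 and 7.02 in P-IV.II (log2FC 2.33 ± 0.27, adjusted p = 0.00239).

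Inside the cell, regulators of small GTPases were called almost only on the higher side. Of the 69 tested exchange factors and GTPase activating proteins, 15 were called higher, 1 lower and 53 were not called, at a median log2FC of 0.66 (with 1 library left out, 7 to 10 higher and 0 to 1 lower), and with 12 higher and 2 lower after median-ratio rescaling and 13 and 2 after quantile normalization. Rasa4, a calcium-responsive Ras GTPase activating protein, was at 51.9 and 38.2 FPKM in P-IV.I and 5.65 and 3.34 in P-IV.II (log2FC 3.08 ± 0.33, adjusted p = 0.00192). Arhgap22, which acts on Rac, was at 21.2 and 24.3 FPKM in P-IV.I and 4.59 and 3.10 in P-IV.II (log2FC 2.31 ± 0.25, adjusted p = 0.00192). Rgl1, an exchange factor for Ral, was at 30.9 and 25.7 FPKM in P-IV.I and 6.62 and 4.49 in P-IV.II (log2FC 2.18 ± 0.26, adjusted p = 0.0026). For each of these the P-IV.I libraries were the higher ones. The member called lower, Arhgap10, a GTPase activating protein, was at 0.439 and 2.50 FPKM in P-IV.I and 6.09 and 7.53 in P-IV.II (log2FC -1.79 ± 0.40, adjusted p = 0.0297). Of the 28 tested regulators of G protein and cyclic nucleotide signalling, 5 were called higher, 0 lower and 23 were not called, at a median log2FC of 0.52 (with 1 library left out, 2 to 6 higher and 0 lower), and with 5 higher and 0 lower after median-ratio rescaling and 5 and 1 after quantile normalization. Rgs12, which shortens G protein signals, was at 4.31 and 3.26 FPKM in P-IV.I and 0.296 and 0.198 in P-IV.II (log2FC 1.93 ± 0.22, adjusted p = 0.00222). Pde1b, a phosphodiesterase, was at 2.80 and 4.27 FPKM in P-IV.I and 0.326 and 0.0502 in P-IV.II (log2FC 1.92 ± 0.27, adjusted p = 0.00417). Of the 47 tested MAP kinase cascade genes, 4 were called higher, 0 lower and 43 were not called, at a median log2FC of 0.47 (with 1 library left out, 1 to 4 higher and 0 lower), and with 1 higher and 0 lower after median-ratio rescaling and 2 and 0 after quantile normalization. Both shares were close to or below those of all tested genes (6.51% higher, 3.11% lower). Mapk11, which encodes p38 beta, was at 4.54 and 4.84 FPKM in P-IV.I and 0.683 and 0.284 in P-IV.II (log2FC 1.95 ± 0.25, adjusted p = 0.00332). Arhgap10 lost its call without P-IV.I replicate 1, P-IV.II replicate 1 or P-IV.II replicate 2, at an adjusted p of up to 0.137.

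Adaptors of immune receptors had calls in both directions. Of the 57 tested tyrosine kinases and adaptors, 9 were called higher, 6 lower and 42 were not called, at a median log2FC of 0.42 (with 1 library left out, 4 to 6 higher and 1 to 5 lower), and with 7 higher and 7 lower after median-ratio rescaling and 7 and 7 after quantile normalization. The focal adhesion kinase Ptk2 was at 14.3 and 16.2 FPKM in P-IV.I and 1.69 and 1.90 in P-IV.II (log2FC 2.54 ± 0.34, adjusted p = 0.00339). Both P-IV.I libraries were the higher ones. Dok3, an adaptor that restrains receptor signalling, was at 5.24 and 5.32 FPKM in P-IV.I and 21.0 and 23.3 in P-IV.II (log2FC -1.88 ± 0.24, adjusted p = 0.00292). Dok2, of the same family, was at 83.5 and 166 FPKM in P-IV.I and 476 and 563 in P-IV.II (log2FC -2.13 ± 0.34, adjusted p = 0.00775). The restraining adaptors were thus high in P-IV.II and Ptk2 in P-IV.I. Of the 54 tested phosphoinositide and phospholipase genes, 10 were called higher, 4 lower and 40 were not called, at a median log2FC of 0.41 (with 1 library left out, 1 to 3 higher and 2 to 3 lower), and with 4 higher and 4 lower after median-ratio rescaling and 5 and 4 after quantile normalization. Pld2, a phospholipase D, was at 10.7 and 12.9 FPKM in P-IV.I and 2.02 and 1.93 in P-IV.II (log2FC 2.1004 ± 0.29, adjusted p = 0.00384). Pld3, an endolysosomal nuclease of that family, was at 16.5 and 30.4 FPKM in P-IV.I and 152 and 156 in P-IV.II (log2FC -2.73 ± 0.31, adjusted p = 0.00211). Of the 19 tested protein tyrosine phosphatases, 1 was called higher, 1 lower and 17 were not called, at a median log2FC of 0.08 (with 1 library left out, 0 higher and 0 lower), and with 0 higher and 1 lower after median-ratio rescaling and 1 and 1 after quantile normalization. Each direction thus held 1 call, near the shares of all tested genes (6.51% higher, 3.11% lower). Ptpn1, a phosphatase of cytokine and insulin signals, was the member called lower, at 61.9 and 65.6 FPKM in P-IV.I and 153 and 133 in P-IV.II (log2FC -1.15 ± 0.22, adjusted p = 0.0156). Ptpn1 lost its call without any 1 of the 4 libraries, at an adjusted p of up to 0.0958. Dok2 lost its call without P-IV.II replicate 2, at an adjusted p of 0.0556.

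Nfkb1, Nfkb2 and Relb of the NF-kappa-B family were higher in P-IV.I. Of the 53 tested STAT, SOCS and NF-kappa-B genes, 8 were called higher, 3 lower and 42 were not called, at a median log2FC of 0.75 (with 1 library left out, 3 to 8 higher and 0 to 1 lower), and with 5 higher and 3 lower after median-ratio rescaling and 6 and 3 after quantile normalization. Over all tested genes 6.51% were called higher and 3.11% lower. Nfkb1, which encodes p105 and p50, was at 86.8 and 92.2 FPKM in P-IV.I and 16.5 and 13.5 in P-IV.II (log2FC 2.51 ± 0.22, adjusted p = 0.000971). Nfkb2, which encodes p100 and p52, was at 75.6 and 82.3 FPKM in P-IV.I and 25.1 and 23.0 in P-IV.II (log2FC 1.68 ± 0.22, adjusted p = 0.00332). Relb, their partner in the alternative pathway, was at 62.4 and 52.1 FPKM in P-IV.I and 19.6 and 12.4 in P-IV.II (log2FC 1.81 ± 0.29, adjusted p = 0.00783). The family members named did not overlap between the subsets, as held for every called gene. Traf1, an adaptor induced by NF-kappa-B, was at 60.6 and 33.9 FPKM in P-IV.I and 7.17 and 8.60 in P-IV.II (log2FC 2.39 ± 0.33, adjusted p = 0.00394). All of these were higher in both P-IV.I libraries than in either P-IV.II library. Socs2, a suppressor of cytokine signals, was at 0.865 and 1.19 FPKM in P-IV.I and 4.68 and 3.77 in P-IV.II (log2FC -1.36 ± 0.26, adjusted p = 0.0177). The inhibitor Nfkbia, which responds to cell handling as well as to stimuli, was at 1627 and 1079 FPKM in P-IV.I and 1623 and 239 in P-IV.II and was not called (log2FC 1.09 ± 0.93, adjusted p = 0.486). Junb, an immediate early gene, was at 2103 and 2832 FPKM in P-IV.I and 2803 and 1011 in P-IV.II and was not called either (log2FC 0.54 ± 0.70, adjusted p = 0.657). P-IV.II replicate 2 was thus the lowest of the 4 libraries for both genes, and the part of this in the NF-kappa-B differences was not tested. Socs2 lost its call without any 1 of the 4 libraries, at an adjusted p of up to 0.111. Relb lost its call without P-IV.I replicate 1 or P-IV.II replicate 2, at an adjusted p of up to 0.0625.

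Ion channels were called on both sides. Of the 41 tested calcium and ion channel genes, 7 were called higher, 5 lower and 29 were not called, at a median log2FC of 0.25 (with 1 library left out, 1 to 3 higher and 1 to 5 lower), and with 5 higher and 6 lower after median-ratio rescaling and 4 and 6 after quantile normalization. The potassium channel Kcna3 was at 14.3 and 16.5 FPKM in P-IV.I and 2.41 and 2.19 in P-IV.II (log2FC 2.31 ± 0.25, adjusted p = 0.00192). Another potassium channel, Kcnq1, was at 2.22 and 3.98 FPKM in P-IV.I and 21.1 and 23.5 in P-IV.II (log2FC -2.54 ± 0.32, adjusted p = 0.00292). Channels of the TRPV family also parted. Trpv2 was at 67.3 and 90.4 FPKM in P-IV.I and 26.3 and 28.7 in P-IV.II (log2FC 1.47 ± 0.28, adjusted p = 0.0172). Trpv4 was at 0.156 and 0.850 FPKM in P-IV.I and 5.54 and 8.27 in P-IV.II (log2FC -2.41 ± 0.39, adjusted p = 0.00783). Channels of the same kind were thus high in different subsets. Trpv2 lost its call without any 1 of the 4 libraries, at an adjusted p of up to 0.0956. Trpv4 lost its call without P-IV.I replicate 1 or P-IV.II replicate 2, at an adjusted p of up to 0.0618.

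Transcription factors, the longest list, were called mostly on the higher side. Of the 77 tested transcription factors, 20 were called higher, 3 lower and 54 were not called, at a median log2FC of 0.73 (with 1 library left out, 8 to 22 higher and 0 to 1 lower). Mycl, a MYC family member of dendritic cells, was at 14.6 and 20.1 FPKM in P-IV.I and 0.403 and 0.288 in P-IV.II (log2FC 3.75 ± 0.27, adjusted p = 0.000452). Zbtb46, a repressor expressed in conventional dendritic cells, was at 68.3 and 82.6 FPKM in P-IV.I and 5.04 and 7.25 in P-IV.II (log2FC 3.43 ± 0.30, adjusted p = 0.000971). Spib, an ETS factor, was at 49.5 and 8.64 FPKM in P-IV.I and 1.29 and 0.122 in P-IV.II (log2FC 3.78 ± 0.71, adjusted p = 0.0156). The P-IV.I libraries of Spib thus lay far apart. Irf8, a factor of type 1 and plasmacytoid dendritic cells, was at 45.7 and 122 FPKM in P-IV.I and 9.56 and 4.77 in P-IV.II (log2FC 3.28 ± 0.62, adjusted p = 0.0158). The P-IV.I libraries were the higher ones for each, and replicate 2 was far the higher of the pair for Irf8. Cebpb, a factor of macrophage activation, was at 55.4 and 85.6 FPKM in P-IV.I and 328 and 209 in P-IV.II (log2FC -1.91 ± 0.38, adjusted p = 0.0201). Id2, an inhibitor of E proteins, was at 152 and 141 FPKM in P-IV.I and 659.6 and 446 in P-IV.II (log2FC -1.88 ± 0.39, adjusted p = 0.0226). Id2 lost its call without any 1 of the 4 libraries, at an adjusted p of up to 0.104. Cebpb lost its call without P-IV.I replicate 1 or P-IV.II replicate 1, at an adjusted p of up to 0.126. Irf8 lost its call without P-IV.I replicate 2 or P-IV.II replicate 2, at an adjusted p of up to 0.0921. Spib lost its call without P-IV.II replicate 2, at an adjusted p of 0.0892.

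**Figure D4:**
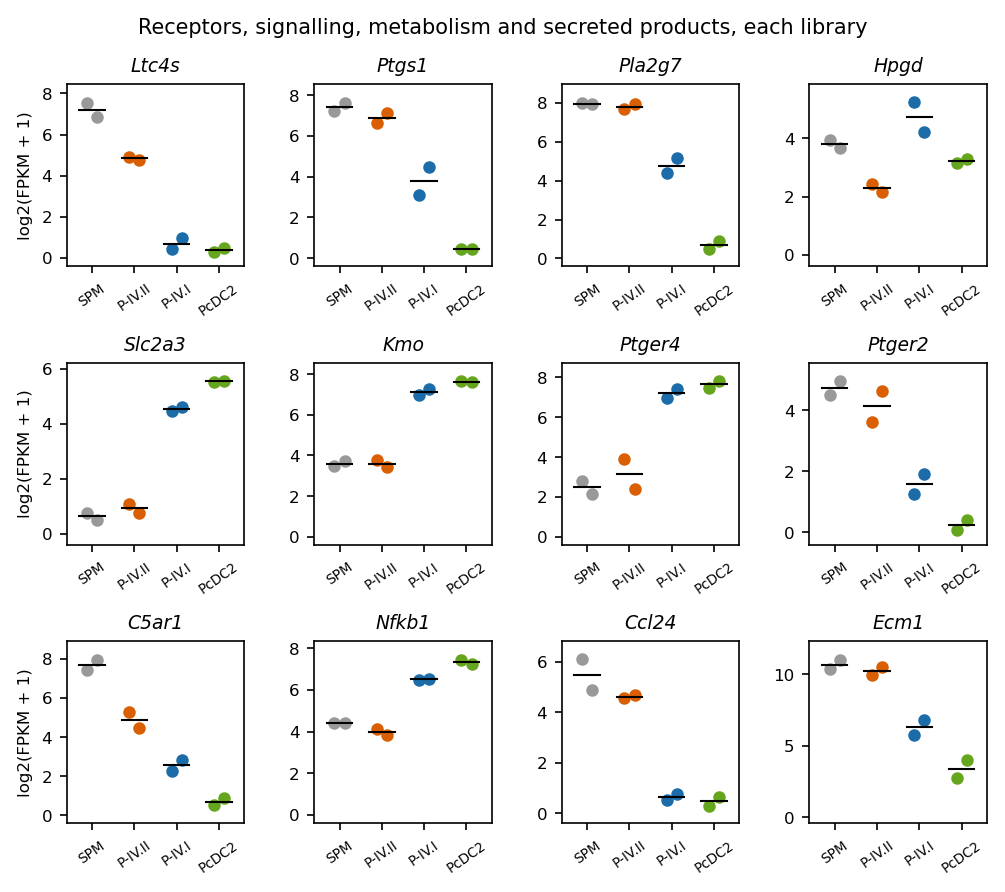
Receptor, signalling, metabolic and secreted genes by library. Each panel shows 1 gene with log2(FPKM + 1) on the vertical axis and 1 point per library of SPM, P-IV.II, P-IV.I and PcDC2, and bars are group means. In every panel the libraries of P-IV.I and P-IV.II did not overlap.

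Calls in energy metabolism fell on single genes of each pathway. Of the 28 tested genes of glycolysis and lactate export, 5 were called higher, 3 lower and 20 were not called, at a median log2FC of -0.20 (with 1 library left out, 2 to 4 higher and 0 lower), and with 4 higher and 6 lower after median-ratio rescaling and 4 and 2 after quantile normalization, so the side with more calls turned with the scaling. The glucose transporter Slc2a3 was at 21.0 and 23.5 FPKM in P-IV.I and 1.13 and 0.680 in P-IV.II (log2FC 3.62 ± 0.24, adjusted p = 0.000381). Eno3, an enolase best known from muscle, was at 9.22 and 7.57 FPKM in P-IV.I and 1.92 and 1.72 in P-IV.II (log2FC 1.73 ± 0.23, adjusted p = 0.00337). Pfkfb4, a bifunctional regulator of the pathway, was at 27.3 and 33.9 FPKM in P-IV.I and 9.46 and 8.43 in P-IV.II (log2FC 1.66 ± 0.28, adjusted p = 0.0102). Other enzymes of the pathway were lower. Aldoa, an aldolase, was at 317 and 277 FPKM in P-IV.I and 591 and 673 in P-IV.II (log2FC -1.09 ± 0.23, adjusted p = 0.0233). Pgk1, a kinase of the pathway, was at 70.5 and 65.6 FPKM in P-IV.I and 127 and 142 in P-IV.II (log2FC -0.97 ± 0.21, adjusted p = 0.0263). Slc2a3, Eno3 and Pfkfb4 were thus high in P-IV.I, and Aldoa and Pgk1 were high in P-IV.II. The abundant enolase Eno1 was at 1205 and 1505 FPKM in P-IV.I and 1789 and 2765 in P-IV.II and was not called (log2FC -0.72 ± 0.33, adjusted p = 0.203). Of the 33 tested tricarboxylic acid cycle genes, 0 were called higher, 2 lower and 31 were not called, at a median log2FC of -0.03 (with 1 library left out, 0 higher and 0 to 1 lower). The shares of all tested genes were 6.51% higher and 3.11% lower, and this list held few calls. Idh1, the cytosolic isocitrate dehydrogenase, was at 60.3 and 66.1 FPKM in P-IV.I and 144 and 247 in P-IV.II (log2FC -1.57 ± 0.34, adjusted p = 0.0269). Aldoa and Pgk1 lost their calls without any 1 of the 4 libraries, at adjusted p values of up to 0.153 and 0.161. Idh1 lost its call without P-IV.I replicate 1, P-IV.I replicate 2 or P-IV.II replicate 2, at an adjusted p of up to 0.152. Pfkfb4 lost its call without P-IV.I replicate 2 or P-IV.II replicate 2, at an adjusted p of up to 0.0692.

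Lipid enzymes included some of the widest gaps. Of the 24 tested eicosanoid genes, 3 were called higher, 8 lower and 13 were not called, at a median log2FC of -0.66 (with 1 library left out, 1 to 2 higher and 5 to 7 lower), and with 1 higher and 9 lower after median-ratio rescaling and 1 and 9 after quantile normalization. Ltc4s, the leukotriene C4 synthase (chromosome 11, 50236461 to 50238532, mm10), was at 0.336 and 0.962 FPKM in P-IV.I and 29.5 and 25.9 in P-IV.II (log2FC -4.15 ± 0.32, adjusted p = 0.000563). Ptgs1, the constitutive cyclooxygenase, was at 7.51 and 21.2 FPKM in P-IV.I and 98.3 and 138 in P-IV.II (log2FC -3.10 ± 0.43, adjusted p = 0.00433). Pla2g7, which degrades platelet-activating factor, was at 19.8 and 35.3 FPKM in P-IV.I and 205 and 242 in P-IV.II (log2FC -3.03 ± 0.31, adjusted p = 0.00173). Ptgs1 and Pla2g7 were measured in the libraries of both subsets, at different levels. Ephx1, an epoxide hydrolase, was at 16.6 and 17.6 FPKM in P-IV.I and 131 and 146 in P-IV.II (log2FC -2.94 ± 0.21, adjusted p = 0.000452). Ltc4s and Ptgs1, which act in the synthesis of leukotrienes and prostanoids, were high in both P-IV.II libraries. Hpgd, which inactivates prostaglandins, was high in P-IV.I, at 37.0 and 17.9 FPKM in P-IV.I and 4.46 and 3.43 in P-IV.II (log2FC 2.45 ± 0.35, adjusted p = 0.00478). Alox5ap, the activator of 5-lipoxygenase, was at 280.1 and 174 FPKM in P-IV.I and 422 and 322 in P-IV.II and was not called (log2FC -0.74 ± 0.38, adjusted p = 0.255).

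Fat and sterol genes were called on both sides, beside shares of 6.51% higher and 3.11% lower over all tested genes. Of the 58 tested fatty acid and lipid droplet genes, 5 were called higher, 4 lower and 49 were not called, at a median log2FC of 0.12 (with 1 library left out, 2 to 3 higher and 2 to 3 lower), and with 4 higher and 5 lower after median-ratio rescaling and 4 and 4 after quantile normalization. Dgat2, which completes triglyceride synthesis, was at 13.9 and 5.61 FPKM in P-IV.I and 0.613 and 0.646 in P-IV.II (log2FC 2.61 ± 0.38, adjusted p = 0.00522). Lpcat2, an enzyme of phospholipid remodelling, was at 14.5 and 15.3 FPKM in P-IV.I and 3.36 and 4.18 in P-IV.II (log2FC 1.74 ± 0.23, adjusted p = 0.00332). Lpl, the lipoprotein lipase, was at 50.6 and 61.7 FPKM in P-IV.I and 301 and 267 in P-IV.II (log2FC -2.32 ± 0.26, adjusted p = 0.00211). Lpl transcript was thus present in both subsets and higher in P-IV.II. The fatty acid binding protein Fabp7, listed at 0 in P-IV.I replicate 1, was at 0 and 0.0920 FPKM in P-IV.I and 8.15 and 4.55 in P-IV.II (log2FC -2.77 ± 0.37, adjusted p = 0.00339). Lpl, Fabp7 and, as given above, Cd36 serve the release, binding and uptake of fatty acids, and all were high in P-IV.II. Acsl1, a long-chain acyl-CoA synthetase of the same list, went the other way. It was at 13.7 and 14.6 FPKM in P-IV.I and 5.97 and 4.88 in P-IV.II (log2FC 1.24 ± 0.25, adjusted p = 0.0191). Acsl1 lost its call without any 1 of the 4 libraries. Of the 41 tested cholesterol genes, 1 was called higher, 0 lower and 40 were not called, at a median log2FC of 0.39 (with 1 library left out, 1 to 2 higher and 0 lower), and with 1 higher and 0 lower after median-ratio rescaling and 1 and 1 after quantile normalization. Both shares were close to or below those of all tested genes (6.51% higher, 3.11% lower). The member called higher was Cyp27a1, a sterol hydroxylase, at 53.2 and 55.8 FPKM in P-IV.I and 6.90 and 3.02 in P-IV.II (log2FC 3.30 ± 0.33, adjusted p = 0.0015). Of the 22 tested retinoid, steroid and xenobiotic genes, 1 was called higher, 4 lower and 17 were not called, at a median log2FC of -0.01 (with 1 library left out, 0 to 1 higher and 1 to 2 lower). Aldh1a2, which makes retinoic acid, was at 68.4 and 59.2 FPKM in P-IV.I and 203 and 169.7 in P-IV.II (log2FC -1.53 ± 0.35, adjusted p = 0.0322). Dhrs3, which reduces retinal, was at 34.6 and 48.0 FPKM in P-IV.I and 149 and 139.7 in P-IV.II (log2FC -1.80 ± 0.25, adjusted p = 0.00407). Aldh1a2 and Cd36 lost their calls without any 1 of the 4 libraries, at adjusted p values of up to 0.133 and 0.185.

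Kmo, Kynu and Il4i1, enzymes that break down tryptophan and other amino acids, were higher in P-IV.I. Of the 38 tested amino acid and polyamine genes, 5 were called higher, 2 lower and 31 were not called, at a median log2FC of 0.29 (with 1 library left out, 3 to 4 higher and 0 to 1 lower), and with 4 higher and 4 lower after median-ratio rescaling and 5 and 3 after quantile normalization. Beside this list, 6.51% of all tested genes were called higher and 3.11% lower. Kmo, the kynurenine monooxygenase, was at 127 and 155 FPKM in P-IV.I and 12.6 and 9.76 in P-IV.II (log2FC 3.54 ± 0.24, adjusted p = 0.000381). Kynu, the kynureninase that follows it, was at 10.9 and 5.60 FPKM in P-IV.I and 0.239 and 0.0480 in P-IV.II (log2FC 2.96 ± 0.32, adjusted p = 0.00192). Il4i1, a secreted amino acid oxidase, was at 17.0 and 8.72 FPKM in P-IV.I and 0.488 and 0.855 in P-IV.II (log2FC 2.99 ± 0.39, adjusted p = 0.00325). All were several-fold higher in both P-IV.I libraries. Arg1, the arginase of alternatively activated macrophages, was low throughout at 0.164 and 0.0419 FPKM in P-IV.I and 1.99 and 3.25 in P-IV.II (log2FC -1.69 ± 0.28, adjusted p = 0.00937). Of the 33 tested nucleotide genes, 1 was called higher, 1 lower and 31 were not called, at a median log2FC of -0.07 (with 1 library left out, 1 higher and 0 to 1 lower). Both shares were close to or below those of all tested genes (6.51% higher, 3.11% lower). Arg1 lost its call without P-IV.I replicate 1, P-IV.I replicate 2 or P-IV.II replicate 2, at an adjusted p of up to 0.0649.

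Iron, heme and redox genes were called almost only on the lower side. Of the 38 tested iron, heme and redox genes, 1 was called higher, 9 lower and 28 were not called, at a median log2FC of -0.25 (with 1 library left out, 0 to 1 higher and 2 to 4 lower). Hmox1, which breaks down heme, was at 20.7 and 17.9 FPKM in P-IV.I and 122 and 78.3 in P-IV.II (log2FC -2.29 ± 0.34, adjusted p = 0.00542). Slc11a1, the phagosomal metal transporter NRAMP1, was at 15.99 and 24.7 FPKM in P-IV.I and 93.1 and 105 in P-IV.II (log2FC -2.26 ± 0.29, adjusted p = 0.00317). Ncf4, a subunit of the phagocyte oxidase, was at 55.9 and 50.5 FPKM in P-IV.I and 135 and 161 in P-IV.II (log2FC -1.46 ± 0.23, adjusted p = 0.00675). These genes were high in both P-IV.II libraries. Tfrc, the transferrin receptor that imports iron, was the member called higher, at 4.31 and 3.82 FPKM in P-IV.I and 1.11 and 0.957 in P-IV.II (log2FC 1.32 ± 0.22, adjusted p = 0.00971). The importer of transferrin iron and the genes of heme breakdown and phagosomal export were thus high in opposite subsets. Of the 47 tested lysosomal genes, 5 were called higher, 3 lower and 39 were not called, at a median log2FC of -0.15 (with 1 library left out, 1 to 4 higher and 2 lower), and with 5 higher and 7 lower after median-ratio rescaling and 6 and 4 after quantile normalization, so the balance turned with the scaling. Over all tested genes the shares were 6.51% higher and 3.11% lower. Ctsd, the aspartic protease cathepsin D, was at 128 and 239 FPKM in P-IV.I and 1521 and 1428 in P-IV.II (log2FC -3.07 ± 0.31, adjusted p = 0.00166). Arsb, a sulfatase of glycosaminoglycans, was at 45.3 and 41.5 FPKM in P-IV.I and 12.8 and 10.9 in P-IV.II (log2FC 1.79 ± 0.22, adjusted p = 0.0026). Tfrc lost its call without P-IV.I replicate 1 or P-IV.II replicate 2, at an adjusted p of up to 0.0717. Ncf4 lost its call without P-IV.II replicate 2, at an adjusted p of 0.0627.

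Secreted products were the theme with the largest share of tested genes called lower, at 22.8%, and metabolism followed at 9.97%. Of the 24 tested complement and coagulation genes, 2 were called higher, 10 lower and 12 were not called, at a median log2FC of -1.29 (with 1 library left out, 1 to 2 higher and 5 to 8 lower). C1qa, C1qb and C1qc encode the chains of C1q, which starts the classical pathway. C1qa was at 10.7 and 9.02 FPKM in P-IV.I and 196 and 103 in P-IV.II (log2FC -3.72 ± 0.62, adjusted p = 0.00892). C1qb was at 57.3 and 74.2 FPKM in P-IV.I and 1038 and 803 in P-IV.II (log2FC -3.79 ± 0.67, adjusted p = 0.0119). C1qc was at 17.4 and 23.3 FPKM in P-IV.I and 337 and 276 in P-IV.II (log2FC -3.85 ± 0.48, adjusted p = 0.00292). All 3 chains were high in both P-IV.II libraries and low but present in P-IV.I. F10, coagulation factor X, was at 2.04 and 5.90 FPKM in P-IV.I and 55.9 and 42.6 in P-IV.II (log2FC -3.44 ± 0.39, adjusted p = 0.00211). The list also holds receptors, among them C3ar1 and C5ar1 given above and the integrin Itgam, at 171 and 224 FPKM in P-IV.I and 246 and 227 in P-IV.II and not called (log2FC -0.27 ± 0.24, adjusted p = 0.511). C1qa lost its call without P-IV.I replicate 1 or P-IV.I replicate 2, at an adjusted p of up to 0.0531. C1qb lost its call without P-IV.I replicate 1 or P-IV.II replicate 1, at an adjusted p of up to 0.0777. C5ar1 lost its call without P-IV.I replicate 1, at an adjusted p of 0.0583.

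Antimicrobial and matrix proteins followed. Of the 34 tested antimicrobial proteins, serpins and lectins, 2 were called higher, 10 lower and 22 were not called, at a median log2FC of -0.62 (with 1 library left out, 1 higher and 6 lower). The lysozymes are a near-identical pair, so the division of fragments between them is uncertain. Lyz1 was at 209 and 301 FPKM in P-IV.I and 7096 and 6502 in P-IV.II (log2FC -4.75 ± 0.35, adjusted p = 0.000499). Lyz2 was at 4538 and 5223 FPKM in P-IV.I and 39111 and 42725 in P-IV.II (log2FC -3.07 ± 0.38, adjusted p = 0.00271). Both libraries of P-IV.II were far above those of P-IV.I, in which Lyz2 was still abundant. Serpina3g, an intracellular protease inhibitor, was on the higher side at 18.3 and 15.9 FPKM in P-IV.I and 1.24 and 0.941 in P-IV.II (log2FC 3.12 ± 0.27, adjusted p = 0.000971). Serpinb6a, another serpin, was at 3.87 and 6.52 FPKM in P-IV.I and 51.5 and 34.8 in P-IV.II (log2FC -2.84 ± 0.34, adjusted p = 0.00249). Of the 25 tested matrix genes, 3 were called higher, 5 lower and 17 were not called, at a median log2FC of -0.42 (with 1 library left out, 1 to 2 higher and 3 to 6 lower), and with 1 higher and 6 lower after median-ratio rescaling and 1 and 6 after quantile normalization. Ecm1, extracellular matrix protein 1, was at 53.0 and 113 FPKM in P-IV.I and 984 and 1486 in P-IV.II (log2FC -3.95 ± 0.51, adjusted p = 0.00332). Fn1, fibronectin, was at 53.4 and 133 FPKM in P-IV.I and 764 and 318 in P-IV.II (log2FC -2.53 ± 0.56, adjusted p = 0.0284). Mmp9, a gelatinase, was at 0.726 and 0.956 FPKM in P-IV.I and 11.3 and 9.72 in P-IV.II (log2FC -2.65 ± 0.29, adjusted p = 0.00207). The P-IV.II libraries were the higher ones for each. Adam23, a membrane protein without protease activity, was among the few matrix genes called higher, at 7.46 and 6.87 FPKM in P-IV.I and 0.0370 and 0.0612 in P-IV.II (log2FC 2.96 ± 0.23, adjusted p = 0.000554). Of the 16 tested growth and angiogenic factors, 0 were called higher, 2 lower and 14 were not called, at a median log2FC of -0.43 (with 1 library left out, 0 to 1 higher and 2 to 3 lower), and with 0 higher and 4 lower after median-ratio rescaling and 0 and 3 after quantile normalization. Grn, progranulin, was abundant in both at 344 and 416 FPKM in P-IV.I and 706 and 669 in P-IV.II and was not called (log2FC -0.86 ± 0.24, adjusted p = 0.0652). Fn1 lost its call without P-IV.I replicate 1 or P-IV.II replicate 1, at an adjusted p of up to 0.152.

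Chemokines and cytokines split by gene. Of the 22 tested chemokine ligands, 3 were called higher, 4 lower and 15 were not called, at a median log2FC of -0.72 (with 1 library left out, 0 to 2 higher and 2 to 4 lower). Ccl24, an eosinophil attractant, was at 0.419 and 0.703 FPKM in P-IV.I and 22.6 and 24.3 in P-IV.II (log2FC -3.98 ± 0.39, adjusted p = 0.00145). Ccl6, an abundant chemokine of mouse macrophages, was at 802 and 601 FPKM in P-IV.I and 4093 and 3771 in P-IV.II (log2FC -2.50 ± 0.32, adjusted p = 0.00319). These were high in P-IV.II. Ccl22, which attracts T cells, was at 17.1 and 14.4 FPKM in P-IV.I and 3.53 and 0.710 in P-IV.II (log2FC 2.58 ± 0.51, adjusted p = 0.0189). Cxcl16, a transmembrane chemokine, was at 62.7 and 75.9 FPKM in P-IV.I and 17.5 and 3.95 in P-IV.II (log2FC 2.87 ± 0.58, adjusted p = 0.0208). P-IV.II replicate 2 was the lowest library for both. Of the 27 tested cytokine genes, 1 was called higher, 3 lower and 23 were not called, at a median log2FC of -0.23 (with 1 library left out, 0 to 5 higher and 1 to 3 lower), and with 1 higher and 3 lower after median-ratio rescaling and 1 and 5 after quantile normalization. These few cytokine calls stand beside 6.51% higher and 3.11% lower over all tested genes. Ltb, lymphotoxin beta, was at 42.8 and 21.1 FPKM in P-IV.I and 4.07 and 2.14 in P-IV.II (log2FC 2.96 ± 0.59, adjusted p = 0.0191). Tnfsf12, the TNF family member TWEAK, was at 6.19 and 8.99 FPKM in P-IV.I and 42.4 and 32.8 in P-IV.II (log2FC -2.18 ± 0.31, adjusted p = 0.00497). Il1b, interleukin 1 beta, was at 689.7 and 503 FPKM in P-IV.I and 549.6 and 31.6 in P-IV.II and was not called (log2FC 2.14 ± 1.21, adjusted p = 0.293), and its P-IV.II libraries spanned a wide range. Cxcl16 and Ccl22 lost their calls without P-IV.I replicate 1, P-IV.I replicate 2 or P-IV.II replicate 2, at adjusted p values of up to 0.0974 and 0.107. Ltb lost its call without P-IV.I replicate 1 or P-IV.II replicate 2, at an adjusted p of up to 0.12.

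The difference inside the gate was then set against that between PcDC2 and SPM outside it. The interaction contrast, (P-IV.I minus P-IV.II) minus (PcDC2 minus SPM), called 117 genes (1.11%) by limma, 106 (1.01%) with a positive value and 11 (0.105%) with a negative one, and 1073 had an unadjusted p under 0.05. All 106 positive genes were lower in PcDC2 than in SPM. For 110 of the 117 the absolute difference was smaller inside the gate, and for 7 it was larger. Inside the gate itself 50 of the 117 were called lower in P-IV.I, 11 higher and 56 not called.

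Several macrophage genes were measured at a sizeable level in the P-IV.I libraries. Whether P-IV.I cells expressed them or P-IV.II cells entered the P-IV.I sort was not tested. F13a1, coagulation factor XIII A, was at 21.0 and 63.1 FPKM in P-IV.I and 196 and 256 in P-IV.II, against 0.349 and 0 in PcDC2 and 425 and 607 in SPM (interaction 6.19 ± 0.67, adjusted p = 0.00749). Fn1 was at 1.04 and 2.24 FPKM in PcDC2 and 1119.8 and 648 in SPM (interaction 5.84 ± 0.79, adjusted p = 0.0168). Retnla was at 4.29 and 12.3 in PcDC2 and 19199.5 and 7951 in SPM (interaction 5.96 ± 0.74, adjusted p = 0.0108). P-IV.I thus lay between PcDC2 and P-IV.II for these secreted products, with no overlap with either. C1qb, at 0.406 and 6.34 FPKM in PcDC2 and 3747 and 2241 in SPM (interaction 6.03 ± 0.95, adjusted p = 0.0343), was also called. Csf1r, the gene of the sort marker CD115, was at 5.08 and 6.86 in PcDC2 and 476 and 739.8 in SPM (interaction 5.77 ± 0.45, adjusted p = 0.00609), and CD115 was used in the sort. The interactions of F13a1 and Csf1r were called with any 1 of the 8 libraries left out. Fn1 lost the interaction call without P-IV.I replicate 2, PcDC2 replicate 1, PcDC2 replicate 2 or SPM replicate 1, at an adjusted p of up to 0.0862. Retnla lost the interaction call without P-IV.I replicate 2, at an adjusted p of 0.0608. C1qb lost the interaction call with any library left out but PcDC2 replicate 1 and PcDC2 replicate 2, at an adjusted p of up to 0.14.

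The negative interactions were smaller. Itgax, at 91.0 and 77.7 FPKM in PcDC2 and 2.29 and 2.04 in SPM (interaction -2.89 ± 0.35, adjusted p = 0.0108), was again a gene of the sort. Cd72 was at 70.8 and 62.5 in PcDC2 and 1.56 and 1.45 in SPM (interaction -2.25 ± 0.38, adjusted p = 0.0415). H2-DMb2, a chain of the peptide-loading molecule H2-M with a near-identical neighbour, was at 805 and 799.6 FPKM in P-IV.I and 646 and 693 in P-IV.II and was not called inside the gate (log2FC 0.26 ± 0.24, adjusted p = 0.507), but stood at 1263 and 1157 in PcDC2 and 293 and 255 in SPM (interaction -1.88 ± 0.33, adjusted p = 0.0458). Tnfrsf18, which encodes the receptor GITR, was at 35.5 and 30.5 FPKM in P-IV.I and 22.2 and 19.2 in P-IV.II inside the gate (log2FC 0.64 ± 0.25, adjusted p = 0.153) and at 54.3 and 54.2 in PcDC2 and 8.73 and 5.72 in SPM (interaction -2.13 ± 0.36, adjusted p = 0.0415). For these genes PcDC2 and SPM lay further apart than the subsets of the gate. Itgax lost the interaction call without P-IV.I replicate 2, PcDC2 replicate 1 or PcDC2 replicate 2, at an adjusted p of up to 0.0709. Cd72 lost the interaction call with any library left out but P-IV.II replicate 2, at an adjusted p of up to 0.177. H2-DMb2 lost the interaction call without any 1 of the 8 libraries, at an adjusted p of up to 0.225. Tnfrsf18 lost the interaction call with any library left out but SPM replicate 1, at an adjusted p of up to 0.182.

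**Figure D5:**
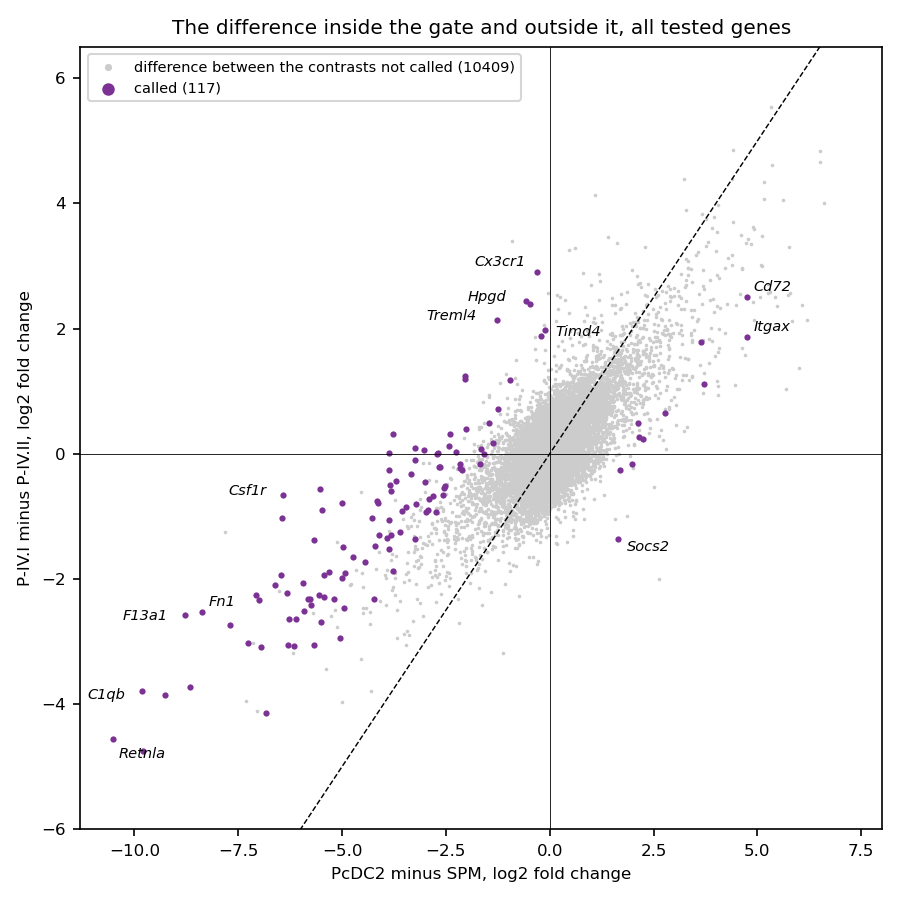
Log2 fold change of PcDC2 minus SPM (horizontal) and of P-IV.I minus P-IV.II (vertical) for all tested genes; each point is 1 gene, coloured points are the 117 with an interaction called, and the dashed line marks equal differences. Most coloured points lie at the left between the dashed line and 0, where PcDC2 was below SPM by a larger margin than P-IV.I was below P-IV.II.

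Of the 117 genes, 26 had opposite signs in the contrasts, and 9 of these were also called inside the gate. They are named after their values were seen. Cx3cr1 was at 19.3 and 24.3 FPKM in PcDC2 and 29.6 and 24.8 in SPM (interaction 3.21 ± 0.48, adjusted p = 0.0286), so PcDC2 and SPM were close where the subsets of the gate were far apart. Hpgd was at 7.99 and 8.83 in PcDC2 and 14.6 and 11.6 in SPM (interaction 3.02 ± 0.49, adjusted p = 0.04). Treml4, a receptor of the TREM family, was at 14.004 and 13.6 FPKM in P-IV.I and 1.95 and 2.85 in P-IV.II and at 1.552 and 0.811 in PcDC2 and 3.25 and 5.23 in SPM (interaction 3.40 ± 0.42, adjusted p = 0.0108). Timd4, a phosphatidylserine receptor of resident macrophages, was at 12.1 and 9.54 FPKM in P-IV.I and 1.97 and 2.00 in P-IV.II and at 18.7 and 23.2 in PcDC2 and 22.0 and 23.1 in SPM (interaction 2.08 ± 0.33, adjusted p = 0.0378). P-IV.II was the lowest of these groups for Timd4, Cx3cr1 and Hpgd. PcDC1, the remaining group of the series with 1 library, was at 106 FPKM for Treml4 and 69.4 for Timd4. Both values were above those of every other library. For Cx3cr1 and Hpgd PcDC1 was at 0. Socs2 went the other way, at 4.11 and 5.12 in PcDC2 and 1.13 and 0.491 in SPM (interaction -3.01 ± 0.37, adjusted p = 0.0108). The remaining genes were AI607873, Itgb5, Ms4a4a and Oasl2, for which the mean of P-IV.I exceeded that of P-IV.II and the mean of SPM that of PcDC2. The SPM and PcDC2 libraries of AI607873 and Ms4a4a overlapped. Cx3cr1 lost the interaction call with any library left out but P-IV.I replicate 2 and P-IV.II replicate 1, at an adjusted p of up to 0.136. Hpgd lost the interaction call with any library left out but P-IV.I replicate 2, at an adjusted p of up to 0.164. Treml4 and Socs2 lost the interaction call without P-IV.I replicate 2 or PcDC2 replicate 2, at adjusted p values of up to 0.0655 and 0.0625. Timd4, AI607873 and Oasl2 lost the interaction call without any 1 of the 8 libraries, at adjusted p values of up to 0.172, 0.181 and 0.203. Itgb5 lost the interaction call without P-IV.I replicate 2, PcDC2 replicate 1 or PcDC2 replicate 2, at an adjusted p of up to 0.0619. Ms4a4a lost the interaction call with any library left out but SPM replicate 2, at an adjusted p of up to 0.119.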

How the data were processed

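RNA was measured in 9 libraries of sorted mouse peritoneal cells, made with a low-input SMARTer kit and sequenced on an Illumina NovaSeq, per the labels' protocols. The authors deposited 1 table of FPKM per gene and library. Per the submitters' processing notes, reads were handled with HISAT2 2.1.0, StringTie 1.3.4d, bcl2fastq 1.8.4 and Cufflinks (version not given in the sources used here) on the build mm10. FPKM scales each library by its own total, so a few very abundant genes can shift all others, and no normalization beyond FPKM is given in the sources used here. Whole reads could not be recovered: over 418 low genes the commonest ratio between libraries, within 1%, was shared by 1.67%. Depth is therefore unknown and no counting interval is given. All 883 abundant genes checked were above 0 in every library, and 8597 genes were listed at 0 in all.

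Libraries were grouped by their titles. The 10526 genes that reached 1 FPKM in 2 or more of the 9 libraries were fitted as log2(FPKM + 1) with limma 3.58.1 in R 4.3.3, with 1 mean for each of the 5 groups (PcDC1 had 1 library), so that all libraries share 1 estimate of the spread (4 residual and 4.02 prior degrees of freedom). A pseudocount of 1 understates the change of low genes. eBayes used a trend, p-values were adjusted by Benjamini-Hochberg over all tested genes, and genes under 0.05 were called. Nothing in the labels says that libraries came from separate animals, so p-values reflect the spread among these libraries alone, which may be technical. Replicate numbers were not taken as pairs: deviations of same-numbered libraries correlated at 0.336 for the P-IV.I and P-IV.II pair and at -0.284 to 0.711 over all 6 pairs of groups, with only 2 numbers. On simulated data for the P-IV.I and P-IV.II contrast over 10526 genes, the fit called 12 of 100 genes with a true log2 change of 1, 91 of 100 with one of 2, and 4 of 10326 unchanged ones. For the interaction it called 0, 24 and 0.

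The members, gene lists and tests were chosen with earlier results of these data known. Some genes stand in more than 1 list, among them Cd36, Ecm1, Relb, C3ar1 and C5ar1. Named genes were the given markers and sort genes, up to 4 called members per direction of each list without overlap plus its most abundant member not called, the 12 highest and 12 lowest differences of all genes with a mean FPKM of at least 20, and the 6 highest and 6 lowest interactions at that level. Of these, the text gives a selection, and a few are not reported here. Only 5 negative interactions met that level, so the remaining place went to a positive one. Gene positions and promoters come from RefSeq GRCm38.p6, which matched 24462 of the 24532 genes. Alternatives were pseudocounts of 0.1 and 5, looser and stricter filters, median-ratio and quantile scaling, no trend, only the groups compared, a replicate block, a test against a log2 change of 1, and each library left out.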

Additional observations from a re-analysis of the deposited data

Results flagged for a closer look

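The test of the difference between the contrasts, (P-IV.I minus P-IV.II) minus (PcDC2 minus SPM), singled out the results given here. It called 117 genes. A positive value means that the gene was higher in P-IV.I, relative to P-IV.II, than in PcDC2 relative to SPM. Such a value can come from P-IV.I above PcDC2, from SPM above P-IV.II, or from both. The values below are log2 interactions from limma, and for each gene the adjusted p was under 0.05.

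Genes of complement and its receptors were among them. The C1q chains had interactions of 4.93 for C1qa, 6.03 for C1qb and 5.41 for C1qc, and the complement receptors had 3.33 for C3ar1 and 4.65 for C5ar1. C3ar1 was at 0.291 and 0.565 FPKM in P-IV.I and 0.184 and 0.438 in PcDC2, which overlapped. It was at 6.56 and 6.72 in P-IV.II and 65.4 and 73.8 in SPM. C5ar1 was also higher in SPM, at 170 and 248, than in P-IV.II, at 38.6 and 21.3. For C1qa these were 1232 and 612 in SPM and 196 and 103 in P-IV.II. Secreted and matrix genes followed, with 6.19 for F13a1, 5.84 for Fn1, 3.46 for Mmp9, 3.50 for Timp2, an inhibitor of matrix proteases, and 5.96 for Retnla. The lysozymes had 5.04 for Lyz1 and 3.09 for Lyz2. The interaction of Csf1r was 5.77. Its product CD115 parted PcDC2 from SPM in the sort but not P-IV.I from P-IV.II, so this value cannot be told apart from the sort.

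Enzymes of lipid mediators and lipid handling had values of 2.68 for Ltc4s, 3.86 for Ptgs1, 4.25 for Pla2g7, 3.02 for Hpgd, 2.11 for Ephx1, 3.44 for Lpl and 4.52 for Cd36. The metal and heme genes Slc11a1 and Hmox1 had 4.82 and 3.14, the cathepsin Ctsd had 2.60 and the guanine deaminase Gda had 2.35. Among receptors and adaptors the interaction was 3.40 for Fcgr3, 4.97 for Fcrls, 2.87 for Cd81, 3.65 for Cd84, 3.21 for Cx3cr1, 1.89 for Dok3 and 1.81 for Mpp1, a membrane scaffold protein.

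Negative interactions were those of Itgax at -2.89, Socs2 at -3.01, Cd72 at -2.25, Tnfrsf18 at -2.13, the plakophilin Pkp3 at -2.002 and H2-DMb2 at -1.88. For these genes PcDC2 exceeded SPM by more than P-IV.I exceeded P-IV.II, and for Socs2 P-IV.I was below P-IV.II. CD11c, the product of Itgax, likewise parted PcDC2 from SPM in the sort. In the simulated data the interaction test recovered 24 of 100 changes of 2 on the log2 scale, a rate that need not hold for these data.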

How the results depend on the processing

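The number of genes called for P-IV.I against P-IV.II moved with the settings, from 1012. Median-ratio rescaling gave 495 lower and quantile normalization 454 higher. Fitting only the groups compared gave 425 higher and 650 in all. The test against a log2 change of 1 called 87 higher and 35 lower, 122 in all. With 1 library left out, where the lone library is assumed to vary like the other groups, 366 to 599 were called, 249 to 435 higher and 95 to 186 lower, and 298 genes were called in all 4 such fits. For the interaction, the filter at an FPKM above 0 in 1 library gave 67 positive and 18 negative, and the filter at 5 gave 6 negative. The test against a log2 change of 1 gave 25 positive and 0 negative, 25 in all, where limma without that threshold called 117 and 1073 had an unadjusted p under 0.05. With 1 library left out, 29 to 76 were called, 29 to 65 positive and 0 to 17 negative. The replicate block, a pairing that the labels do not establish, gave 1101 higher and 514 lower, 1615 in all, and for the interaction 186 positive and 23 negative, 209 in all. H2-Ab1 turned from -0.14 to 1.03 after quantile normalization. Over the named genes and the settings that kept all libraries, 2028 results held their direction and call, 289 lost the call, 3 gained it and 1 reversed. With 1 library left out 643 held, 292 lost the call and 1 gained it. The causes of these changes were not tested beyond the fewer libraries of those fits. Without counts, depth sets no stated limit. With 2 libraries per group a change of 1 on the log2 scale was seldom recovered in simulated data, whose settings differ from these data.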
